A study of Sus scrofa with 6 samples.

Results

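The genes described here encode the protein components of the mitochondrial ribosome, and they were taken as every gene of the expression table whose pig Ensembl identifier carries a symbol starting with MRPL (large subunit) or MRPS (small subunit). Of the 28266 rows of the table, 11804 carried a symbol, and 44 of these were members: 30 MRPL and 14 MRPS genes. The table of pig gene names held 65 such symbols, and the genes without a row in the table, among them MRPL12, MRPL23, MRPL40, MRPL58, MRPS12, MRPS18C, MRPS30 and MRPS36, were not analysed here. All 44 members had a mean of at least 1 FPKM (fragments per kilobase of gene, scaled to the counted fragments of the library) over the libraries, so none was lost to the filter on low values, which left 14060 genes for the test. FPKM is scaled by gene length, so levels of different genes are set side by side below. The annotation counted is not given and the spans of 14 members overlap another gene, so such comparisons are approximate.

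RNA-seq was performed on porcine skeletal muscle satellite cells (PSCs) from Yorkshire pigs, the stem cells of muscle, which fuse into myotubes when they differentiate in culture. There were 6 libraries in 2 groups, 3 harvested at 24 h of differentiation (replicates 4, 5 and 6) and 3 at a later time (also numbered 4, 5 and 6). The later time is 36 h in the title of the series and in the study's methods but 48 h in the sample labels, and 36 h is used below. Both groups are the control arm of a small interfering RNA (siRNA) experiment, in which the study's methods describe cells transfected with a negative control siRNA, so they differ in time and not in treatment. The labels do not say that the replicates came from separate animals or cultures, so the p-values measure the spread between these samples, which may be technical.

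Mitochondrial ribosomes translate the few proteins that the mitochondrial genome still encodes, all of them core subunits of the respiratory chain and ATP synthase. Their proteins are all encoded in the nucleus, made in the cytosol and imported. Many have a bacterial counterpart, while others are found only in mitochondria and surround a reduced ribosomal RNA. Inherited defects in several of these genes, among them MRPL3, MRPL44, MRPS2 and MRPS34, are known to cause combined oxidative phosphorylation deficiency.

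The depth implied by the steps of the FPKM values was 16382890 to 16908165 fragments in the 24 h libraries and 18015798 to 21896353 in the 36 h libraries, and the members had 71 to 2550 fragments per library. Libraries of the same group correlated at r = 0.972 to 0.994 across genes and libraries of different groups at 0.910 to 0.962. Replicate 6 of the 24 h group stood apart from its group: the summed FPKM of 13 muscle markers was 5400 in it against 8720 and 9993 in the other 24 h libraries and 21315 to 24212 at 36 h. The labels' extraction protocol speaks of endometrium, but markers of endometrium and epithelium summed to at most 4.54 FPKM, most of it CDH1, and KRT8 and PGR were listed at 0 in every library. Markers of endothelium, leukocytes and adipocytes summed to at most 5.76 each, with the leukocyte gene PTPRC listed at 0 throughout. SLIRP, a mitochondrial RNA-binding protein of most cells, was also listed at 0 in all libraries and the mitochondrial protease LONP1 in all but 1, so a 0 in this table is not read as absence. Fibroblast markers summed to 825 to 1030 FPKM, a sum in which opposite changes met: of the 5 tested, COL1A2, DCN and LUM fell without overlap (DCN from 18.5 to 19.0 FPKM at 24 h to 5.09 to 6.89 at 36 h), COL3A1 rose (201 to 272 and 386 to 527 FPKM) and FAP did not pass the test. Of the 13 muscle markers, 11 rose and none fell between 24 h and 36 h. This rise and the changes of the fibroblast markers ran alongside every difference below, and their part in them was not tested.

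The members were expressed at moderate levels that differed widely from gene to gene. The mean over the 6 libraries ran from 4.16 FPKM for MRPL50, a protein of the large subunit found only in mitochondria, to 84.2 FPKM for MRPL24. The median was 27.9 over the 44 genes, against 9.89 over all genes tested and 12.8 over the tested genes with a symbol. After MRPL24, the highest MRPL levels belonged to MRPL28 and MRPL18, and the highest MRPS levels to MRPS33, MRPS34 and MRPS26. The lowest MRPL levels were those of MRPL50, MRPL19 and MRPL47, and the lowest MRPS levels those of MRPS9, MRPS18A and MRPS35. Within each library the highest MRPL gene lay 15.9 to 26.2 times above the lowest. The MRPS genes were closer together, and their spread was wider at 36 h: the highest lay 4.39 to 5.39 times above the lowest at 24 h and 7.85 to 8.72 times at 36 h. The SD of log2 FPKM over the 14 MRPS genes was correspondingly 0.65 to 0.74 at 24 h and 0.89 to 0.96 at 36 h, with no overlap between groups, while that over the 30 MRPL genes was 1.11 to 1.18 at 24 h and 1.16 to 1.19 at 36 h.

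**Figure D1:**
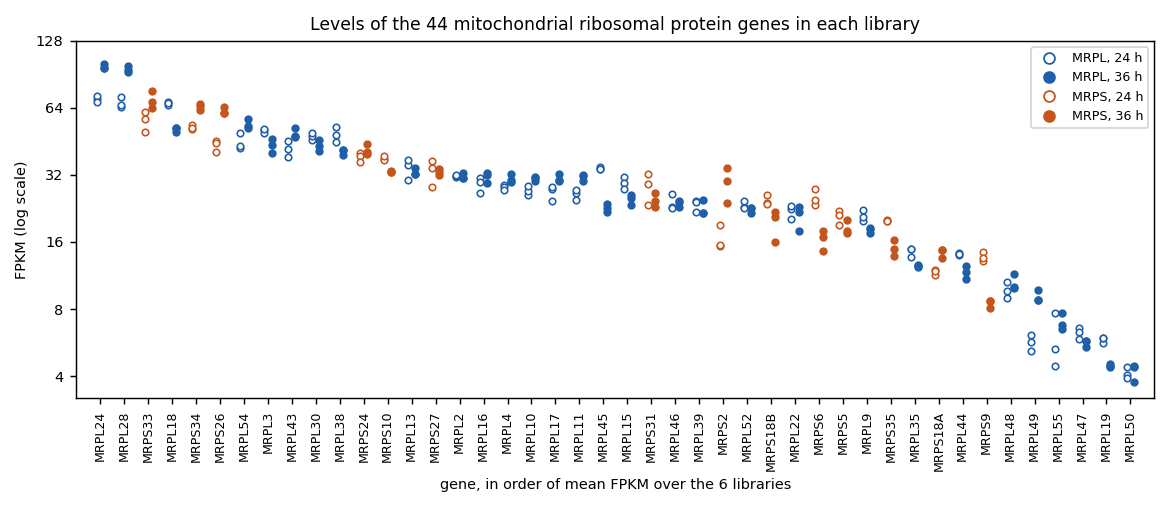
FPKM (log scale) of each of the 44 genes in every library, ordered by the mean over the 6 libraries, with open points for 24 h and filled points for 36 h and with MRPL genes in blue and MRPS genes in orange. The means run from 84.2 FPKM for MRPL24 to 4.16 for MRPL50, and genes of similar level move in opposite directions.

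Together the members took up nearly the same share of the transcriptome at both times. Their summed FPKM was 1307 ± 14.1 (SD, n = 3) at 24 h and 1366 ± 9.0 at 36 h, a rise of 4.47%, and this was 0.221% to 0.234% of the total FPKM of a library. The MRPL sum was 885 ± 4.94 at 24 h and 915 ± 9.89 at 36 h, and the MRPS sum was 422 ± 10.6 and 450 ± 8.45. Every 36 h library was above every 24 h library for both sums. FPKM is relative to the other RNA of a library, and in bulk samples fewer cells of a type and less RNA per cell cannot be told apart. With the libraries rescaled by the median ratio of their genes, the same sums rose by 16.8% (MRPL) and 20.2% (MRPS), since that scaling moved the median log2 change of all genes from -0.16 to -0.01.

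The question put to the test was which of these genes differed between 24 h and 36 h. A linear model across all genes (limma on log2(FPKM + 1), Benjamini-Hochberg adjusted p under 0.05, 36 h minus 24 h) called 24 of the 44 members, against a background of 50.9% of all genes tested, so the share called was near the background. Of the members, 11 were higher at 36 h, where 16.5% of all genes were, and 13 were lower, where 34.4% of all genes were. The groups did not overlap for 31 members, 14 higher and 17 lower, against 63.6% of all genes. Of the 14060 genes tested, 2950 were higher and 5989 lower without overlap. The changes were small: the log2 changes ran from -0.63 to 0.78 with a median of -0.03, compared with a median of -0.16 over all genes tested and -0.17 over the 7881 tested genes with a symbol.

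Both subunits held genes that rose and genes that fell. Of the MRPL genes, 6 rose, 9 fell and 15 did not pass the test (median log2 change -0.03), and of the MRPS genes 5 rose, 4 fell and 5 did not pass (median -0.08), but with median-ratio scaling the counts turned to 10 higher and 2 lower MRPL genes (median 0.14) and 6 higher and 2 lower MRPS genes (median 0.09). The background with that scaling was 23.9% higher and 22.3% lower, so that both subunits then had a larger share of higher and a smaller share of lower genes than the table as a whole. Without 24 h replicate 6 the counts were 6 higher and 8 lower MRPL genes and 4 higher and 4 lower MRPS genes. The other libraries moved the MRPL counts more: 2 lower genes were left without 36 h replicate 5, 3 without 24 h replicate 5 and 4 without 24 h replicate 4 or 36 h replicate 4 or 6, and 3 higher genes without 36 h replicate 5 or 6. The higher MRPS genes numbered 3 without 36 h replicate 4 or 5. Calls over all genes tested also became fewer in both directions without any library but 24 h replicate 6, and were fewest without 36 h replicate 5. Losing calls with a library left out was thus not particular to these genes. In each of these fits, however, the lower MRPL calls lost a larger part than the lower calls over all genes. They went from 30% of the MRPL genes to 6.67% without 36 h replicate 5 and to 10% without 24 h replicate 5. The lower MRPS calls went from 28.6% to 21.4% in both fits. These losses were compared by counts only, and the difference from all genes was not tested. No difference between the subunits was tested. Over the 44 genes, the log2 change had r = 0.22 (rho = 0.31) with the mean level and r = -0.18 (rho = -0.22) with the counted length; these are correlations across genes that share the same libraries, given as a description.

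**Figure D2:**
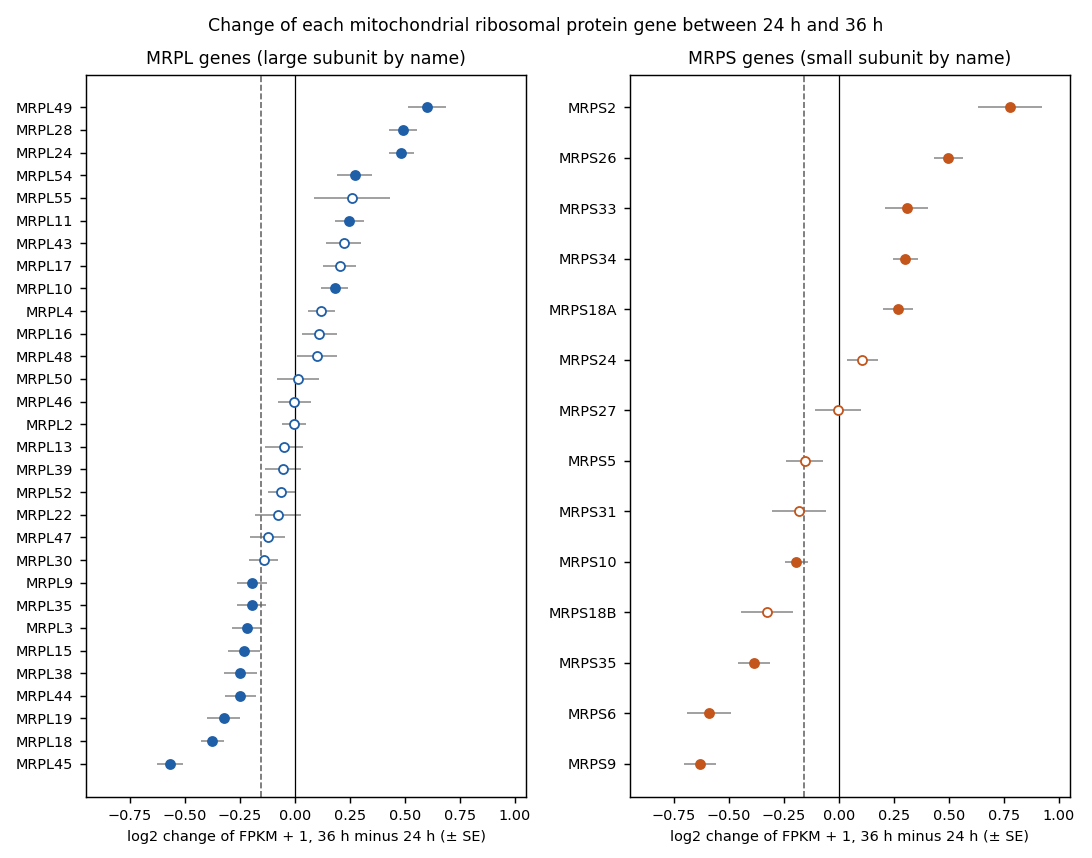
Log2 change of FPKM + 1 from 24 h to 36 h with its standard error for each MRPL gene (left) and MRPS gene (right), where filled points passed an adjusted p of 0.05 in limma and the dashed line is the median of all genes tested (-0.16). Of the called genes, 6 MRPL and 5 MRPS genes lie to the right of 0 and 9 MRPL and 4 MRPS genes to the left, and with median-ratio scaling these counts become 10 and 6 to the right and 2 and 2 to the left.

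There were 10 members whose call held in all 15 alternative fits, which changed the pseudocount, the filter, the scaling, the variance model, the pairing or the input, or left out 1 library. They were 6 genes higher at 36 h (MRPL24, MRPL28, MRPL49, MRPS2, MRPS26 and MRPS34) and 4 lower (MRPL18, MRPL45, MRPS6 and MRPS9). Of the other 14 called genes, 9 lost their call with median-ratio scaling. How many of all genes tested kept their call in every fit was not counted, so these numbers have no background beside them.

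Among the large subunit genes, MRPL24 stands for a protein of bacterial ancestry at the exit of the peptide tunnel, and it was the most abundant member. It had 70.1, 72.4 and 67.7 FPKM at 24 h and 101, 96.8 and 96.9 at 36 h. The groups were well apart, with a log2 change of 0.48 ± 0.06 (SE, adjusted p = 0.00137). MRPL45 stands for the mitochondria-specific protein at the same exit, which holds the ribosome at the inner membrane. It had 34.6, 33.9 and 34.2 FPKM at 24 h and 23.7, 21.8 and 22.7 at 36 h. It went the other way, with a fall by 0.57 ± 0.06 on the log2 scale (adjusted p = 0.00105). MRPL22, the third exit gene in the table, had 22.4, 23.2 and 20.3 FPKM at 24 h and 23.0, 21.7 and 17.9 at 36 h, and its groups overlapped (log2 change -0.08 ± 0.10, adjusted p = 0.565). In RefSeq's annotation of Sscrofa11.1, MRPL24 spans 93352997 to 93357805 of chromosome 4 and MRPL45 spans 23751921 to 23766476 of chromosome 12.

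MRPL28, whose bacterial relative is the ribosomal protein L28, had 64.6, 66.1 and 71.8 FPKM at 24 h and 92.5, 94.8 and 98.5 at 36 h. Its level was 41.1% higher at 36 h, much as for MRPL24 (log2 change 0.49 ± 0.06, adjusted p = 0.0018). MRPL49, a mitochondria-specific protein, was among the lowest members, at 5.21, 5.70 and 6.13 FPKM at 24 h and 8.75, 8.82 and 9.78 at 36 h. Its log2 change of 0.60 ± 0.09 was the largest of the MRPL genes (adjusted p = 0.0025). MRPL18, whose bacterial relative binds the 5S ribosomal RNA, had 65.6, 67.7 and 67.0 FPKM at 24 h and 52.0, 49.6 and 52.0 at 36 h. At 24 h it stood level with MRPL24 and MRPL28, and at 36 h it lay well below both, after a fall by 0.38 ± 0.05 on the log2 scale (adjusted p = 0.00235). MRPL28 spans 41330412 to 41333520 of chromosome 3, MRPL49 spans 7066514 to 7071812 of chromosome 2 and MRPL18 spans 7581763 to 7590037 of chromosome 1. The span of MRPL49 shares 910 bases with that of FAU, which encodes a cytosolic ribosomal protein. FAU itself had 10.4 ± 0.461 FPKM at 24 h and 11.4 ± 0.694 at 36 h (log2 change 0.12, adjusted p = 0.215), and whether the authors' counting used strand is not given in the sources used here.

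The stalk recruits translation factors to the ribosome, and both of its genes in the table, MRPL10 and MRPL11, were higher at 36 h. So were 16.5% of all genes tested, and 23.9% with median-ratio scaling. MRPL12, also listed for the stalk, had no row in the table, so the stalk as a whole is not described. MRPL10, its base protein, had 25.9, 27.1 and 28.4 FPKM at 24 h and 31.1, 31.4 and 30.1 at 36 h. MRPL11, which sits beside it, had 26.6, 27.4 and 24.6 FPKM at 24 h and 30.0, 31.6 and 32 at 36 h. The groups did not overlap for either gene, but the calls were close to the threshold (adjusted p = 0.0458 for MRPL10 and 0.0205 for MRPL11). MRPL10 kept its call only when 24 h replicate 6 was the library left out: without 24 h replicate 4 or 5 or 36 h replicate 4, 5 or 6 its adjusted p was 0.0711 to 0.147. MRPL11 lost its call without 36 h replicate 5 (adjusted p = 0.0791) or 36 h replicate 6 (0.0602). MRPL10 lies on chromosome 12, from 24076484 to 24083086, the chromosome that also holds MRPL45, which fell.

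The central protuberance crowns the large subunit, and its 3 genes in the table did not move together. MRPL38 fell from 44.9, 52.7 and 48.4 FPKM at 24 h to 39.2, 41.6 and 41.4 at 36 h (log2 change -0.25 ± 0.07, adjusted p = 0.0296), while with median-ratio scaling it had a log2 change of -0.08 (adjusted p = 0.438). Its call was also lost without 24 h replicate 5 or 36 h replicate 4, 5 or 6 (adjusted p = 0.0607 to 0.0991). MRPL46 had 24.0 ± 1.94 FPKM at 24 h and 23.9 ± 0.763 at 36 h, and MRPL48 had 9.72 ± 0.785 and 10.5 ± 0.864. For both, the difference was smaller than the spread between replicates (adjusted p = 0.974 and 0.392).

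Of the remaining large subunit genes, MRPL54, a mitochondria-specific protein, rose from 42.1, 43.0 and 49.1 FPKM to 57.1, 52.1 and 53.1 (log2 change 0.27 ± 0.08, adjusted p = 0.0266). That call held without 24 h replicate 6 but not without any other library, where the adjusted p was 0.0561 to 0.0911. MRPL19, whose bacterial relative lies at the interface of the subunits, fell from 5.66, 5.91 and 5.94 FPKM to 4.41, 4.45 and 4.51 (-0.33 ± 0.07, adjusted p = 0.0115), and its call was lost with median-ratio scaling (-0.18, adjusted p = 0.0808) and its adjusted p reached 0.05 without 36 h replicate 5. The span of MRPL19 shares 4540 bases with that of GCFC2, at 1.85 ± 0.12 FPKM at 24 h and 1.80 ± 0.204 at 36 h. MRPL44, which carries a fold related to ribonuclease III, fell from 14.3, 14.0 and 14.1 FPKM to 10.9, 11.8 and 12.5 (-0.25 ± 0.07, adjusted p = 0.0247). Its log2 change was -0.09 with median-ratio scaling (adjusted p = 0.365), and the call was lost without 24 h replicate 4 or 5 or 36 h replicate 4 or 5 (adjusted p = 0.0634 to 0.0794).

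The last 4 called MRPL genes were MRPL3, MRPL9, MRPL15 and MRPL35, all with bacterial counterparts. They fell by 13.3% to 15.5% of their 24 h FPKM with adjusted p of 0.0316 to 0.0458, and their log2 changes shrank to -0.06 to -0.03 with median-ratio scaling, where none passed the test. Each also lost its call when single libraries were left out: MRPL3 without 24 h replicate 4 or 5 or 36 h replicate 5 or 6 (adjusted p = 0.0714 to 0.0921), MRPL15 and MRPL35 without any library but 24 h replicate 6 (0.0537 to 0.0984 and 0.0937 to 0.133), and MRPL9 without any of the 6 (0.0503 to 0.116). Of these 4, MRPL3 had the highest level, 50.6 ± 0.966 FPKM at 24 h and 43.3 ± 2.95 at 36 h. Like MRPL19, MRPL50 and MRPL47 were among the 3 lowest genes of the subunit, but they did not pass the test: MRPL50 had 4.40, 4.07 and 3.93 FPKM at 24 h and 4.39, 4.43 and 3.76 at 36 h, and MRPL47 had 6.55, 6.31 and 5.89 against 5.43, 5.76 and 5.77 (adjusted p = 0.91 and 0.221). The span of MRPL47 shares 466 bases with that of ACTL6A, which fell from 11.08 ± 0.545 to 6.51 ± 0.203 FPKM. The 15 uncalled MRPL genes included MRPL43 and MRPL17, at 42.0 ± 3.39 and 26.8 ± 1.95 FPKM at 24 h and 49.0 ± 2.50 and 30.9 ± 1.27 at 36 h, whose adjusted p of 0.0519 and 0.0565 lay just above the threshold and fell to 0.0112 and 0.0126 with median-ratio scaling. Leaving out 24 h replicate 4 brought the adjusted p of MRPL43 to 0.0322 and that of MRPL55, which had 7.65, 5.30 and 4.46 FPKM at 24 h and 6.81, 7.70 and 6.49 at 36 h, from 0.247 to 0.0245. The span of MRPL43 lies over that of TWNK, which had 4.50 ± 0.0537 FPKM at 24 h and 4.21 ± 0.404 at 36 h (adjusted p = 0.496).

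In the small subunit, MRPS2 had the largest log2 change of all members. It encodes the relative of bacterial S2. It had 15.3, 15.5 and 19.1 FPKM at 24 h and 23.9, 29.9 and 34.4 at 36 h. The groups did not overlap, yet the 36 h libraries varied more than those of most members, and the log2 change was 0.78 ± 0.15 (adjusted p = 0.00552). RefSeq places MRPS2 on no chromosome of Sscrofa11.1, unlike the other 43 members.

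MRPS26, a mitochondria-specific protein, had 45.5, 44.5 and 40.6 FPKM at 24 h and 60.4, 60.8 and 64.3 at 36 h, a log2 change of 0.50 ± 0.07 (adjusted p = 0.00193). MRPS34, also found only in mitochondria, had 53.6, 51.4 and 52.1 FPKM at 24 h and 65.3, 62.4 and 66.6 at 36 h, a log2 change of 0.30 ± 0.06 (adjusted p = 0.00538). Both were among the 3 most abundant MRPS genes and were higher in every 36 h library than in any 24 h library. The third, MRPS33, had 56.9, 61.2 and 49.8 FPKM at 24 h and 76.2, 64.2 and 68.0 at 36 h (0.31 ± 0.10, adjusted p = 0.0387). Its libraries were more scattered, and its call was kept only without 24 h replicate 5, with an adjusted p of 0.055 to 0.113 when any other library was left out. MRPS26 spans 32629281 to 32631434 of chromosome 17 and MRPS34 spans 40194078 to 40195316 of chromosome 3.

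MRPS9 and MRPS6, relatives of bacterial S9 and S6, had the largest falls of all members. MRPS9 had 14.4, 13.2 and 13.6 FPKM at 24 h and 8.74, 8.10 and 8.65 at 36 h, a fall by 0.63 ± 0.07 on the log2 scale (adjusted p = 0.00128). MRPS6 had 23.3, 24.6 and 27.8 FPKM at 24 h and 14.6, 16.9 and 17.9 at 36 h, a fall by 0.59 ± 0.10 (adjusted p = 0.00407). Neither gene's groups came near to overlap. MRPS9 spans 49626796 to 49681437 of chromosome 3 and MRPS6 spans 197687906 to 197756773 of chromosome 13, where its span overlaps that of SLC5A3. MRPS35, a mitochondria-specific protein, fell from 19.9, 20.0 and 19.9 FPKM to 13.9, 14.9 and 16.3 (-0.39 ± 0.07, adjusted p = 0.00601). With median-ratio scaling its log2 change was -0.22 (adjusted p = 0.0545), while its call held without each library in turn. MRPS10, the relative of bacterial S10, fell from 37.8, 37.5 and 38.7 FPKM to 33.0, 33.0 and 33.3 (-0.19 ± 0.05, adjusted p = 0.0208), a change of similar size to the median of all genes. Its call was lost with median-ratio scaling (-0.02, adjusted p = 0.729) and without 24 h replicate 5 or 36 h replicate 4 or 5 (adjusted p = 0.0551 to 0.0813).

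**Figure D3:**
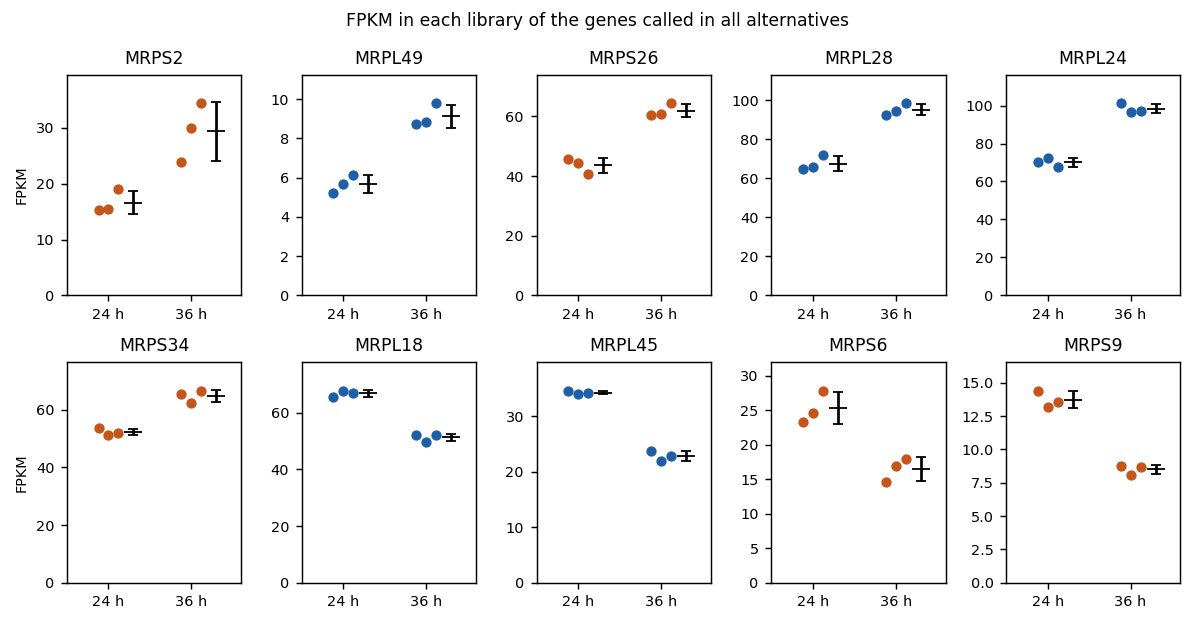
FPKM in each library at 24 h and 36 h for the 10 genes whose call held in all 15 alternative fits, in blue for MRPL and orange for MRPS genes, each with its group mean ± SD (n = 3) beside the points and an axis starting at 0. The upper row and MRPS34 are higher at 36 h, from 5.68 to 9.12 FPKM for MRPL49 and 16.6 to 29.4 for MRPS2, and the rest are lower, with no overlap between groups in any panel.

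The MRPS18 paralogs are related proteins that occupy different places in the ribosome, and despite its name MRPS18A sits in the large subunit. MRPS18A had 12, 11.4 and 11.9 FPKM at 24 h and 14.7, 14.7 and 13.6 at 36 h (log2 change 0.27 ± 0.07, adjusted p = 0.016). Its call was lost without 24 h replicate 5 or 36 h replicate 4 or 5 (adjusted p = 0.0542 to 0.0708). MRPS18B, a small subunit protein, had 23.9, 23.6 and 26.0 FPKM at 24 h and 16, 20.7 and 21.8 at 36 h, without overlap, but it did not pass the test (log2 change -0.33 ± 0.12, adjusted p = 0.0571). Leaving out 36 h replicate 6 brought its adjusted p to 0.0428. The ratio of MRPS18A to MRPS18B was 0.479 ± 0.0217 at 24 h and 0.751 ± 0.154 at 36 h, and an exact two-sided permutation test gave p = 0.1, the smallest that 3 against 3 libraries allow. The span of MRPS18B shares 620 bases with that of PPP1R10, which rose from 28.2 ± 1.11 to 33.8 ± 0.811 FPKM. Counting MRPS18A with the large subunit gave 7 higher and 9 lower genes there and left 4 higher and 4 lower in the small subunit.

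Some pairs of members in the same subunit changed their proportions to each other, which multiplying a whole library by 1 factor does not alter. The ratio of MRPS26 to MRPS9 was 3.16, 3.38 and 3.0 at 24 h and 6.91, 7.51 and 7.44 at 36 h. The ratio of MRPL28 to MRPL45 was 1.87, 1.95 and 2.10 at 24 h and 3.91, 4.34 and 4.33 at 36 h. MRPL24 stood at 1.07, 1.07 and 1.01 times MRPL18 at 24 h and at 1.95, 1.95 and 1.86 times at 36 h. These 3 pairs were chosen after their values were seen, so the ratios are a description without a test.

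Grouped as listed with a bacterial counterpart or as mitochondria-specific, the members gave no common direction with the FPKM as deposited. The mitochondria-specific lists hold MRPS18A and MRPS18B, paralogs of MRPS18C, which is listed with a bacterial counterpart. Of the 19 large subunit proteins with a bacterial counterpart, 4 rose and 6 fell (median log2 change -0.05). Of the 12 listed as mitochondria-specific, MRPS18A included, 3 rose and 3 fell (median 0.01). Of the 6 small subunit proteins with a bacterial counterpart, 1 rose and 3 fell (median -0.17). Of the 7 listed as mitochondria-specific, MRPS18B included, 3 rose and 1 fell (median 0.00). Over all genes 16.5% rose and 34.4% fell. With median-ratio scaling 23.9% of all genes were higher and 22.3% lower. The 4 groups then had 7 higher and 1 lower, 4 and 1, 2 and 2, and 3 and 0 genes. Higher genes thus outnumbered lower ones in all groups but the third. The first group also had only 1 lower gene without 36 h replicate 5, 2 without 24 h replicate 4 or 5 or 36 h replicate 6 and 3 without 36 h replicate 4, and 2 higher genes without 36 h replicate 5 or 6. The second had 1 higher and 1 lower without 24 h replicate 5 or 36 h replicate 4 or 5. The fourth had 2 lower without 36 h replicate 6. All genes tested also had fewer higher and fewer lower calls in each of these fits with a library left out. In the fits listed for them, however, the first and second groups lost a larger part of their calls than all genes did. Lower genes of the first group went from 31.6% to 5.26% without 36 h replicate 5. The groups are small, and their difference from all genes was not tested. The 20 members that did not pass the test had log2 changes of at most 0.33 in size and adjusted p of 0.0519 to 0.98, and 7 of them passed in at least 1 alternative fit.

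The other genes of mitochondrial translation in the table, 55 of 61 of which were tested, had 7 higher and 18 lower genes with a median log2 change of -0.19, which was close to the median of all genes. Their shares of 12.7% higher and 32.7% lower were near the 16.5% and 34.4% of all genes. With median-ratio scaling they had 12 higher and 8 lower genes and a median of -0.05. That was 21.8% and 14.5%, against 23.9% and 22.3% of all genes. Among the ribosomal proteins with other symbols, PTCD3, an RNA-binding protein of the small subunit, fell from 24.1, 25.9 and 25.3 FPKM to 20.3, 17.8 and 19.2 (log2 change -0.38, adjusted p = 0.0054). DAP3, a GTP-binding protein of the small subunit, had 7.49, 7.77 and 7.69 FPKM at 24 h and 7.41, 7.80 and 7.81 at 36 h, and CHCHD1 had 12.9, 12.5 and 13.2 against 15.2, 14.4 and 12.9. Neither passed the test (adjusted p = 0.969 and 0.223), though CHCHD1 did with median-ratio scaling (adjusted p = 0.0221).

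None of the 10 translation factors rose and 5 fell, with a median log2 change of -0.27, where 16.5% of all genes rose and 34.4% fell. With median-ratio scaling none rose and 2 fell (20%, median -0.11). That share was near the 22.3% of all genes that fell with this scaling, where 23.9% rose. With quantile normalization 2 fell as well (median -0.08). Without 24 h replicate 5 or 36 h replicate 5 it was also 2, without 36 h replicate 4 or 6 it was 3, and without 24 h replicate 6 it was 7. Lower calls over all genes tested also became fewer without 24 h replicate 5 or any 36 h library, but by a smaller part. They hardly changed without 24 h replicate 6. The ribosome recycling factor GFM2 fell from 6.31, 6.77 and 7.06 FPKM to 4.62, 4.18 and 4.51 (log2 change -0.50, adjusted p = 0.00362), and the release factor MTRF1L from 12, 11 and 12.2 to 8.46, 7.97 and 8.47 (-0.45, adjusted p = 0.00337). Both are known to act where translation ends or the ribosome is recycled. The initiation factor MTIF2, the recycling factor MRRF and the release factor homologue MTRF1 had log2 changes of -0.33, -0.27 and -0.27 (adjusted p = 0.0148, 0.0228 and 0.0432), which shrank to -0.17, -0.11 and -0.12 with median-ratio scaling and did not pass there. These 3 calls did not hold in every fit with a library left out: without 24 h replicate 5 or 36 h replicate 5 that of MTIF2 had an adjusted p of 0.0508 or 0.0625, MRRF lost its call without 24 h replicate 5 or 36 h replicate 4, 5 or 6 (0.0533 to 0.0833), and MTRF1 without any of the 6 libraries (0.07 to 0.119). The log2 changes in those fits stayed of similar size. They were -0.33 and -0.29 for MTIF2, -0.30 to -0.23 for MRRF and -0.30 to -0.22 for MTRF1. The elongation factor TUFM, the most abundant of the factors, had 103, 108 and 101 FPKM at 24 h and 107, 99.2 and 99.7 at 36 h, with overlapping groups (adjusted p = 0.689). The elongation factor GFM1 and the formyltransferase MTFMT, which makes the initiator, did not pass either (log2 changes -0.18 and -0.22, adjusted p = 0.151 and 0.0597), but did without 24 h replicate 6 (adjusted p = 0.0269 and 0.0336). TSFM and MTIF3 were not analysed here.

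Of the 19 tested genes of ribosome assembly and ribosomal RNA modification, 4 rose and 6 fell, near the 16.5% and 34.4% of all genes, and with median-ratio scaling 5 were higher and 2 lower. MPV17L2, an inner membrane protein needed for assembly, rose from 3.26, 3.64 and 2.41 FPKM to 5.37, 6.18 and 7.06 (log2 change 0.82, adjusted p = 0.00484), and TRUB2, a pseudouridine synthase, fell from 10.1, 11.3 and 12.2 to 8.18, 7.64 and 8.06 (-0.44, adjusted p = 0.00645). Of the 13 tested mitochondrial aminoacyl-tRNA synthetases, none rose and 5 fell, a share near that of all genes, while with median-ratio scaling 1 rose and 2 fell. Without 24 h replicate 5 or 36 h replicate 5 there were 2 lower ones, and without 24 h replicate 4 or 36 h replicate 4 or 6 there were 3. Lower calls over all genes tested were fewer in each of these fits too, but by a smaller part. WARS2 had 6.28, 6.63 and 7.94 FPKM at 24 h and 3.51, 4.09 and 4.45 at 36 h (log2 change -0.66, adjusted p = 0.00455). Of 10 genes of mitochondrial gene expression and of membrane insertion of the new chains, 3 rose and 1 fell, and with median-ratio scaling 5 rose and 1 fell. Of all genes, 16.5% rose and 34.4% fell, and with that scaling 23.9% rose and 22.3% fell. The insertase OXA1L, which receives chains from the tunnel exit near MRPL45, rose from 16.4, 15.2 and 14.0 FPKM to 21.1, 23.1 and 21.7 (0.51, adjusted p = 0.00289), and the transcription factor TFB2M fell from 5.41, 5.72 and 4.66 to 3.72, 3.47 and 3.21 (-0.49, adjusted p = 0.00832), a call lost with quantile normalization (-0.29, adjusted p = 0.0962).

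Set beside the lists most like them, the mitochondrial ribosomal protein genes (median log2 change -0.03) lay between the cytosolic ribosome and the respiratory chain. The medians of all genes tested (-0.16) and of the other mitochondrial translation genes (-0.19) lay there too, so this place was not particular to the members. Of 26 tested cytosolic ribosomal protein genes, none rose and 23 fell (median log2 change -0.49), and their summed FPKM fell by 29.3%. Of 42 oxidative phosphorylation subunits of the nuclear genome, 18 rose and 2 fell (median 0.16), and their summed FPKM rose by 13.8%, compared with the rise of 4.47% for the members. The medians of the cytosolic ribosome, the members and the respiratory chain kept their order with median-ratio scaling, at -0.31, 0.14 and 0.33. They also kept it without 24 h replicate 6, at -0.46, -0.06 and 0.13. Over all genes 16.5% rose and 34.4% fell with the FPKM as deposited. The lists were compared by counts and medians, and the difference between them was not tested.

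**Figure D4:**
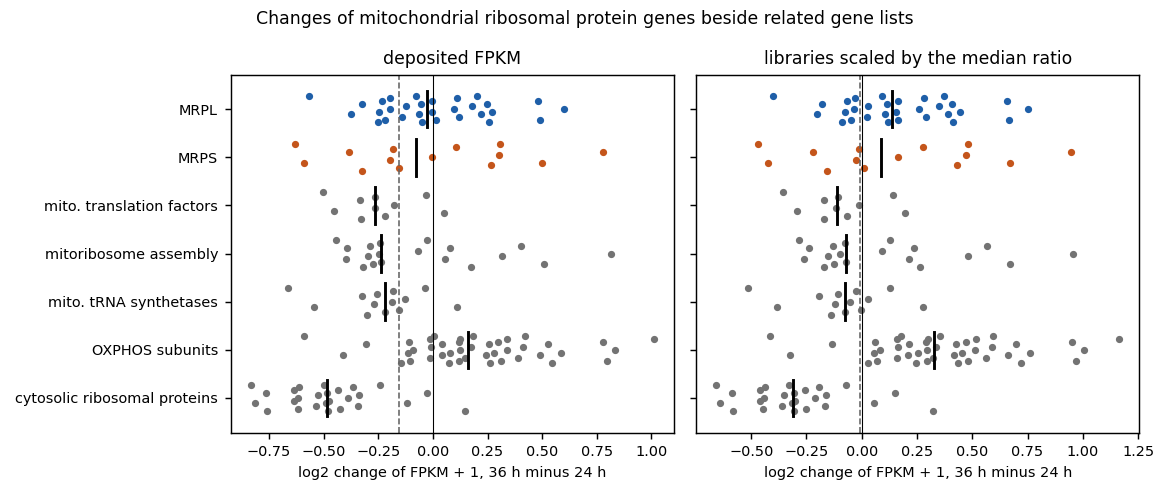
Log2 change of FPKM + 1 from 24 h to 36 h of each tested gene (points) in 7 lists, with the list's median as a black bar and the median of all genes as a dashed line, for the deposited FPKM (left) and for libraries scaled by the median ratio (right). On the left the medians are -0.03 for MRPL and -0.08 for MRPS genes, -0.49 for cytosolic ribosomal proteins and 0.16 for oxidative phosphorylation (OXPHOS) subunits, and on the right both mitochondrial ribosomal medians are above 0, at 0.14 and 0.09.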

How the data were processed

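The authors mapped paired-end reads to the pig genome (Sscrofa11.1) and deposited 1 FPKM value per gene and library, with no library pooled. The study's methods name HISAT2, StringTie and HTSeq, and the submitters' processing notes name TopHat2, Cufflinks and HTSeq; the annotation release is not given in the sources used here. Members and gene lists were chosen with earlier results of these data known.

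Genes with a mean of at least 1 FPKM were fitted on log2(FPKM + 1) with limma 3.58.1 in R 4.3.3 (lmFit, eBayes with trend, both groups, no covariate), two-sided, with Benjamini-Hochberg adjustment over all 14060 genes and a threshold of 0.05. A change on this scale understates that of low genes. The study used a count test; here the FPKM as deposited were tested. Whole fragments were recovered from the FPKM steps for all 19543 genes above 0 in at least 3 libraries, within 0.02 of a fragment, and were fitted with voom as an alternative; they also gave each library's depth. Fits were tested on simulated data. Alternatives changed the pseudocount (0.1, 0.01), filter, scaling, variance prior and threshold, added the replicate number as a block, and left out each library.

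Genes named were, in each of MRPL and MRPS, up to 5 rises and 5 falls with the largest log2 change among called genes without overlap, the 3 highest and 3 lowest levels, fixed structural groups (stalk, central protuberance, tunnel exit, MRPS18 paralogs), fixed factors, and the largest rise and fall of each pathway list. MRPL3, MRPL9, MRPL15, MRPL17, MRPL35, MRPL43, MRPL55 and the overlapping neighbours were named after their values were seen. Pig gene names came from a table of identifiers, and positions from RefSeq's Sscrofa11.1 annotation, where each of the 44 members matched 1 gene; these spans may differ from the gene models counted. The spans of 14 members overlap another gene. No sequences were used here.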

Additional observations from a re-analysis of the deposited data

How the results depend on the processing

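The counts of called genes depended on the scaling, the threshold and the leaving out of a library, while no called change of a named gene turned its direction. With median-ratio scaling 10 MRPL genes were higher and 2 lower (6 and 9 with the FPKM as deposited), 2 MRPS genes were lower (4), and 12 other translation genes were higher and 8 lower (7 and 18). Quantile normalization left 2 lower MRPL genes and 8 lower translation genes, and a variance prior without a trend left 5 lower MRPL genes. A log2 change of at least 0.5 as a further condition left 1 higher and 1 lower MRPL gene, 1 higher and 2 lower MRPS genes, and 3 higher and 3 lower translation genes. Leaving out 1 library at a time gave 3 to 6 higher MRPL genes (3 without 36 h replicate 5 or 6) and 2 to 8 lower ones (2 without 36 h replicate 5, 3 without 24 h replicate 5, 4 without 24 h replicate 4 or 36 h replicate 4 or 6), 3 to 4 higher MRPS genes (3 without 36 h replicate 4 or 5) and 3 to 5 lower ones, and 5 to 7 higher and 10 to 21 lower translation genes (10 without 24 h replicate 5 or 36 h replicate 5). Of all genes tested, 16.5% were higher and 34.4% lower with the FPKM as deposited, and 23.9% and 22.3% with median-ratio scaling. Quantile normalization also gave more higher and fewer lower calls over all genes, and the condition of 0.5 gave fewer of both. The prior without a trend hardly changed the calls over all genes. Leaving out any library but 24 h replicate 6 made them fewer in both directions. The lower MRPL and translation calls lost a larger part in each of these fits than the lower calls over all genes. The cause of the differences between fits was not tested. Same-numbered libraries deviated together only weakly (r = 0.15, -0.02 and 0.18 for replicates 4, 5 and 6), and nothing in the labels ties them, so no pairing was assumed. The fit with a replicate block gave 6 higher and 7 lower MRPL genes, 5 higher and 5 lower MRPS genes, and 7 higher and 15 lower translation genes. The block hardly changed the calls over all genes tested. The pseudocounts, the filters and voom on recovered fragments kept the 6 counts of MRPL, MRPS and translation genes within 1.5 times. No group had enough samples for a test of single libraries standing apart, and 3 libraries a group limit which small changes can be called.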
